A study of Homo sapiens with 12 samples.

Results

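The study asked what an inhibitor of the kinase ATM did to gene expression in HCT116 cells from which the phosphatase Wip1 had been depleted. HCT116 is a human colorectal carcinoma cell line. The comparison used 6 of the 12 arrays of the study, chosen by their labels alone. They were 3 arrays of cells with a short hairpin RNA against Wip1 and the ATM inhibitor (Wip1SH+ATMi), at 10 µM for 3 days with the inhibitor renewed every day, and 3 arrays of the same depleted cells without it (Wip1SH). Parental cells with the inhibitor at the same dose and time (WT+ATMi) and without it (WT), 3 arrays each, served to ask whether a change differed in the depleted cells. RNA was labelled as cRNA and hybridised to Illumina HumanHT-12 bead arrays, which give 1 brightness per probe. The 3 arrays of a group are biological replicates, according to the series. The labels used here name no control hairpin and no vehicle for the untreated cells, and they do not say whether the depleted cells were 1 clone or a pool. Both depleted groups carried the hairpin. Effects of the inhibitor, of a solvent and of the daily renewal cannot be told apart, and depletion itself is not part of the difference described here.

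ATM is a protein kinase that responds to DNA double-strand breaks. It phosphorylates CHK2, p53, H2AX and other proteins and so holds the cell cycle, starts repair and induces p53 target genes. Wip1, the product of PPM1D, is a phosphatase and a p53 target, and it ends the signal by dephosphorylating ATM, p53 and H2AX. In cells that lack Wip1 the marks laid by ATM are known to last longer.

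All values are normalized log2 intensities, in which a difference of 1 is a doubling, and errors after ± are standard errors (SE) from a linear model over all 12 arrays, with n = 3 arrays in each group. A gene is said to have risen or fallen where its adjusted p was under 0.05 among the 11785 genes tested. PPM1D had log2 intensities of 8.86, 8.83 and 8.69 on the Wip1SH+ATMi arrays and 8.74, 8.43 and 8.87 on the Wip1SH arrays, and of 10.62, 10.62 and 10.68 on the WT+ATMi arrays and 10.28, 10.43 and 10.31 on the WT arrays. It was lower on each depleted array than on each parental array, with or without the inhibitor. Within the depleted cells its log2 fold change (Wip1SH+ATMi over Wip1SH) was 0.11 ± 0.10 (adjusted p = 0.486) and the groups overlapped. ATM itself had 7.99, 7.31 and 7.76 on the Wip1SH+ATMi arrays, against 7.78, 7.70 and 7.62 on the Wip1SH arrays, a log2 fold change of -0.02 ± 0.17 (adjusted p = 0.963). Its second detected probe was at 0.14.

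Of 13 colon epithelium markers, 9 were measured, among them EPCAM, CDH1 and the keratins KRT8, KRT18 and KRT19. No endothelial marker of 6 passed the detection filter, and 2 of 9 fibroblast markers (COL1A1, DCN) and 2 of 10 blood cell markers (CD14, CD68) did. CD14 was detected on 2 of the 3 Wip1SH+ATMi arrays and on 0 of the Wip1SH arrays. More probes were detected with the inhibitor, 19505 to 20408 on the Wip1SH+ATMi arrays and 18568 to 18961 on the Wip1SH arrays. Mean signals were 649 to 746 on the Wip1SH+ATMi arrays and 542 to 653 on the Wip1SH arrays. Correlations between arrays across genes were 0.993 to 0.995 within each of these groups and 0.983 to 0.988 between them. The number of detected probes moved with the inhibitor, and the counts with it as a covariate are given below. The values are relative to all RNA on an array, so fewer transcripts per cell and fewer cells with the transcript cannot be told apart.

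Between Wip1SH+ATMi and Wip1SH, 2750 of 11785 genes differed, or 23.3% of those tested: 1687 rose (14.3%) and 1063 fell (9.02%). Most changes were small. Called genes moved by a median of 0.44 (log2, regardless of sign), the signed median over all genes was 0.02, and 66 genes (0.56%) passed with a change of at least 2-fold, 39 higher and 27 lower. The 3 arrays of one group lay apart from the 3 of the other in 4809 genes (40.8%), and in 2725 (23.1%) that also passed the test. Every gene named below as risen or fallen was among these 2725 genes. With 1 array left out, between 1881 (without Wip1SH replicate 2) and 2771 genes passed. The balance of rises and falls followed the normalization. When quantile normalization was replaced by equal array medians over all probes, 2096 genes were higher and 285 lower, and the median of all genes was 0.15. When each array's count of detected probes entered the fit as a covariate, 159 genes passed. Of the 220 genes singled out by the naming rule and past the test, these 34 passed under that covariate: RNA18SN5, LFNG, TSKU, TUBB3, FGFR3, ABCC3, ESAM, RNY4, PRRX2, E2F2, GINS2, CDC45, HMOX1, CBX2, MACROH2A2, TUBB, TUBA3D, LMOD3, MTF1, AKR1B15, AKR1B10, MYH16, SNAI2, WFDC2, CPA4, CDC42BPB, ARRDC4, LCE1A, NRG1, CEACAM1, SFN, RPL29, SAMD9 and CAV1. For every other gene said below to have risen or fallen the call was lost under it. Some list medians below 0 lay above 0 with array medians equal over all probes, where all genes were at 0.15: those of the tRNA synthetases, NRF2 targets, fatty acid synthesis, glycolysis, the respiratory chain, ribosome biogenesis, heat shock chaperones, NF-kB genes, immediate-early genes, ERK feedback and replication-dependent histones.

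The largest rises joined a ribosomal RNA, a Notch modifier, an interferon-pathway transcription factor and several surface proteins. RNA18SN5, the 18S ribosomal RNA, had 7.95, 8.02 and 8.19 on the Wip1SH+ATMi arrays, against 6.25, 5.96 and 6.67 on the Wip1SH arrays, and rose by 1.77 ± 0.18 (adjusted p = 0.000128). This RNA carries no poly(A) tail as a rule, and the part of RNA quality and labelling in its signal was not tested. RNY4, a small noncoding RNA, was detected on 3 Wip1SH+ATMi arrays and 0 Wip1SH arrays and was at least 1.86-fold higher (adjusted p = 0.000171). LFNG encodes the fringe glycosyltransferase that modifies Notch receptors. It had 7.33, 7.60 and 7.43 on the Wip1SH+ATMi arrays, against 5.47, 5.77 and 6.29 on the Wip1SH arrays. The rise was 1.61 ± 0.16 (adjusted p = 0.000108), although the second detected LFNG probe was at 0.30. LFNG was detected on 2 of the 3 Wip1SH arrays, so the size of its rise is uncertain. IRF1, a transcription factor of the interferon response, had 8.13, 8.53 and 8.26 on the Wip1SH+ATMi arrays, against 6.73, 6.52 and 6.82 on the Wip1SH arrays, and rose by 1.61 ± 0.18 (adjusted p = 0.00021). TSKU, a secreted leucine-rich protein, had 10.29, 10.53 and 10.47 on the Wip1SH+ATMi arrays, against 8.91, 8.86 and 9.07 on the Wip1SH arrays, a rise of 1.49 ± 0.10 (adjusted p = 1.9e-05). For these 3 genes the lowest Wip1SH+ATMi array lay more than 1 log2 unit above the highest Wip1SH array.

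FGFR3, a fibroblast growth factor receptor, had 11.50, 11.52 and 11.52 on the Wip1SH+ATMi arrays, against 10.07, 10.15 and 10.28 on the Wip1SH arrays. Its rise of 1.35 ± 0.09 (adjusted p = 1.51e-05) came from the brighter of 2 detected probes, and the dimmer one pointed the other way at -0.58. ABCC3, an exporter of conjugated drugs and bile salts, had 11.05, 11.05 and 10.97 on the Wip1SH+ATMi arrays, against 9.71, 9.70 and 9.80 on the Wip1SH arrays, a rise of 1.29 ± 0.07 (adjusted p = 5.09e-06). The neuronal beta-tubulin TUBB3 had 11.19, 11.43 and 11.30 on the Wip1SH+ATMi arrays, against 9.83, 10.03 and 10.02 on the Wip1SH arrays, a rise of 1.35 ± 0.10. In each of these 3 genes the arrays of a group differed among themselves by far less than the groups did. TSPAN18, a tetraspanin, rose by 1.43 ± 0.16, the adhesion molecule ESAM by 1.28 ± 0.12, the homeobox factor PRRX2 by 1.18 ± 0.11, GNB1L by 1.21 ± 0.15, ABTB1 by 1.24 ± 0.16 and ZNF526 by 1.18 ± 0.17. OPN3, of the opsin family, rose by 1.29 ± 0.26 and was detected on 1 of the 3 Wip1SH arrays. TSPAN18 and GNB1L were detected on 2 of those 3, so the sizes of these rises are uncertain.

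The largest falls included a metal-sensing transcription factor, aldo-keto reductases and a repressor of epithelial genes. MTF1, which binds metal response elements of the metallothionein genes, had 7.38, 6.99 and 7.49 on the Wip1SH+ATMi arrays, against 8.89, 8.94 and 8.72 on the Wip1SH arrays, and fell by 1.56 ± 0.12 (adjusted p = 3.15e-05). AKR1B10, a reductase of aldehydes and retinal, had 8.24, 8.27 and 8.26 on the Wip1SH+ATMi arrays, against 9.81, 9.66 and 9.82 on the Wip1SH arrays, a fall of 1.51 ± 0.07 (adjusted p = 1.94e-06). The Wip1SH+ATMi arrays were nearly equal and all far below the Wip1SH arrays. AKR1B15 fell by 1.55 ± 0.13. The 2 genes are close copies of each other, so their probes may share transcripts. SNAI2 (Slug), the repressor of E-cadherin and other epithelial genes, had 7.65, 7.52 and 7.81 on the Wip1SH+ATMi arrays, against 9.21, 9.19 and 9.19 on the Wip1SH arrays, a fall of 1.53 ± 0.12 (adjusted p = 2.86e-05), and its second probe was at -1.22. CPA4, a carboxypeptidase, had 10.72, 10.60 and 10.67 on the Wip1SH+ATMi arrays, against 12.01, 12.24 and 12.18 on the Wip1SH arrays, and fell by 1.49 ± 0.10. CEACAM1, a cell adhesion molecule of epithelia, had 7.98, 8.08 and 8.09 on the Wip1SH+ATMi arrays, against 9.22, 9.21 and 9.21 on the Wip1SH arrays, and fell by 1.17 ± 0.10, with a second probe at -1.15. Each of these genes was separated between the groups by more than 1 log2 unit.

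Some further falls ended near the detection limit. Those of CDC42BPB and ARRDC4 ended well above it, at Wip1SH+ATMi means of 8.24 and 7.46. LCE1A was detected on 0 of the Wip1SH+ATMi arrays and all 3 Wip1SH arrays and was at least 1.80-fold lower. It was detected on 0 of the WT+ATMi and WT arrays too, so that it passed the detection filter only through the Wip1SH arrays, and its test is no support for the difference. WFDC2, a secreted protease inhibitor homologue, fell by 1.52 ± 0.14 and TRIM16L by 1.35 ± 0.25, and both were detected on 1 of the 3 Wip1SH+ATMi arrays. Their Wip1SH+ATMi means of 5.15 and 5.27 lay below the lowest detected signals of those arrays (5.40 to 5.48), so that the size of both falls is uncertain. HSF1, the heat shock transcription factor, fell by 1.27 ± 0.28 and was detected on 2 of those 3. MYH16, a myosin pseudogene in humans, fell by 1.54 ± 0.16, the Cdc42-binding kinase CDC42BPB by 1.34 ± 0.14, the arrestin-domain protein ARRDC4 by 1.33 ± 0.11 with a second probe at -1.15, and the hormone gastrin (GAST) by 1.203 ± 0.22. NRG1, a ligand of ERBB receptors, fell by 1.24 ± 0.17, while its other 2 detected probes were at -0.29 and -0.13.

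**Figure D1:**
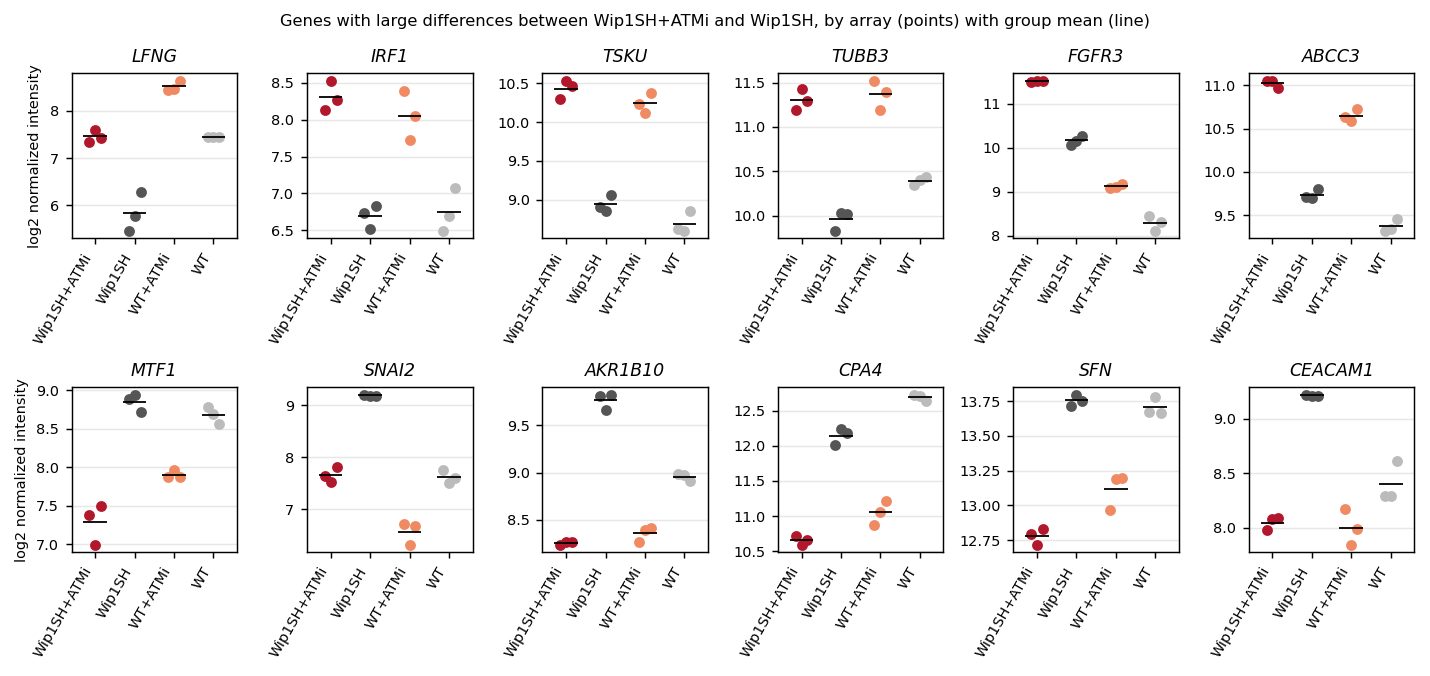
Normalized log2 intensity (vertical axis of each panel, own scale) of 12 genes on the 12 arrays; points are arrays, lines are group means. In the 6 genes of the upper row all Wip1SH+ATMi arrays lie above the Wip1SH arrays, and in the 6 of the lower row below them.

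Genes of DNA replication rose more often than they fell. Of 46 measured, 18 rose and 1 fell, with a median log2 fold change of 0.20, against 14.3% higher, 9.02% lower and a median of 0.02 over all genes. The number of higher genes was 15 to 19 with 1 array left out, and the falls 0 to 2 with 1 array left out (over 1.5 times away without Wip1SH+ATMi replicate 2 or 3, or Wip1SH replicate 3, or WT replicate 3). Sites of the form TTNGCGC or TTNCCGC, which E2F factors of the replication programme bind, were searched on both strands, overlaps included, from 250 bases before to 50 after the transcription start in RefSeq's GRCh38.p14. They were found in 29 of the 40 replication genes with a promoter in that table (72.5%) and in 12 of the 16 such genes that rose (75.0%), against 18.9% of all 27305 promoters and 29.7% of those of the genes tested. The promoters of 4 of the risen genes are shown 5′ to 3′ on the strand of the gene with these matches in capitals, because most replication genes held such a match. They lie at chr7:100101348-100101647 (minus strand, MCM7), chr6:52284693-52284992 (minus, MCM3), chr16:85688905-85689204 (minus, GINS2) and chr22:19479670-19479969 (plus, CDC45).
MCM7: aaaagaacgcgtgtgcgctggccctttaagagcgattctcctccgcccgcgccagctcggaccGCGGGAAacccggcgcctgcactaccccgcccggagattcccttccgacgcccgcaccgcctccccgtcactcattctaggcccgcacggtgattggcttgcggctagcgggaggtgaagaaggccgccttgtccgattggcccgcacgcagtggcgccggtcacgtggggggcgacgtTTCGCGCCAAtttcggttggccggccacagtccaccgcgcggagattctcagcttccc
MCM3: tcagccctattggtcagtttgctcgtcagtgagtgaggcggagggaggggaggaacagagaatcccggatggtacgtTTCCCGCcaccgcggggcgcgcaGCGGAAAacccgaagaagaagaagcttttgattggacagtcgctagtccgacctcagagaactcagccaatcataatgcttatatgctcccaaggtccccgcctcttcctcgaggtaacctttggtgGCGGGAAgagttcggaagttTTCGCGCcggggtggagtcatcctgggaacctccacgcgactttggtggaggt
GINS2: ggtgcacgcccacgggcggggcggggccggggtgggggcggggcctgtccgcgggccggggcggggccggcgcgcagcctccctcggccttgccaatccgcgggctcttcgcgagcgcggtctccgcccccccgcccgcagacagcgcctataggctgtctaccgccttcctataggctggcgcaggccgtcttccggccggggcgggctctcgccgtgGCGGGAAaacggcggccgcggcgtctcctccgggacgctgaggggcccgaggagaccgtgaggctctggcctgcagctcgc
CDC45: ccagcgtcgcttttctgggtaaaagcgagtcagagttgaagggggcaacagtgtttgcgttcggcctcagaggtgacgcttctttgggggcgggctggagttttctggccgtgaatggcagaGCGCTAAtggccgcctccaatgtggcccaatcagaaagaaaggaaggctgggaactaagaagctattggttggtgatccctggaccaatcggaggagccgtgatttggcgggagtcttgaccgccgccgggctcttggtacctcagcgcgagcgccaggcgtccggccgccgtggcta
MCM7 had 3 matches, of which 2 overlapped at 8 and 5 bases before the start and 1 began 187 bases before it. MCM3 had 4 matches, and GINS2 and CDC45 had 1 each. A match is a string of letters and not a measured site.

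MCM7, a subunit of the replicative helicase, had 11.65, 11.74 and 11.72 on the Wip1SH+ATMi arrays, against 11.18, 11.21 and 11.24 on the Wip1SH arrays, and rose by 0.50 ± 0.06 (adjusted p = 0.000432). Its other detected probes were at 0.39 and 0.50. MCM3, of the same ring, had 11.95, 12.05 and 12.003 on the Wip1SH+ATMi arrays, against 11.43, 11.40 and 11.52 on the Wip1SH arrays, and rose by 0.55 ± 0.07 (adjusted p = 0.000467). The arrays of the groups lay well apart in both. GINS2, of the complex that activates the helicase, had 10.31, 10.42 and 10.18 on the Wip1SH+ATMi arrays, against 9.66, 9.51 and 9.74 on the Wip1SH arrays, a rise of 0.67 ± 0.09 (adjusted p = 0.000482). CDC45, its partner, had 9.60, 9.53 and 9.39 on the Wip1SH+ATMi arrays, against 8.89, 8.98 and 9.05 on the Wip1SH arrays, a rise of 0.53 ± 0.08 (adjusted p = 0.00123). These 2 genes also passed with the detected-probe covariate. Of the other helicase subunits, MCM2 was at 0.57, MCM5 at 0.57 and MCM6 at 0.45, all past the test, and MCM4 at 0.22 (adjusted p = 0.0996). The histone chaperone subunits CHAF1A and CHAF1B were at 0.68 and 0.42, the licensing factor CDT1 at 0.54 and the flap endonuclease FEN1 at 0.50, with adjusted p-values of 0.00244, 0.0138, 0.00681 and 0.00161. The CHAF1B call was lost without Wip1SH+ATMi replicate 2 or Wip1SH replicate 1. Not all parts of the machinery were among the rises: the sliding clamp PCNA was at -0.18, the reductase subunit RRM2 at -0.16 and the ligase LIG1 at -0.04, with adjusted p-values of 0.148, 0.451 and 0.76.

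**Figure D2:**
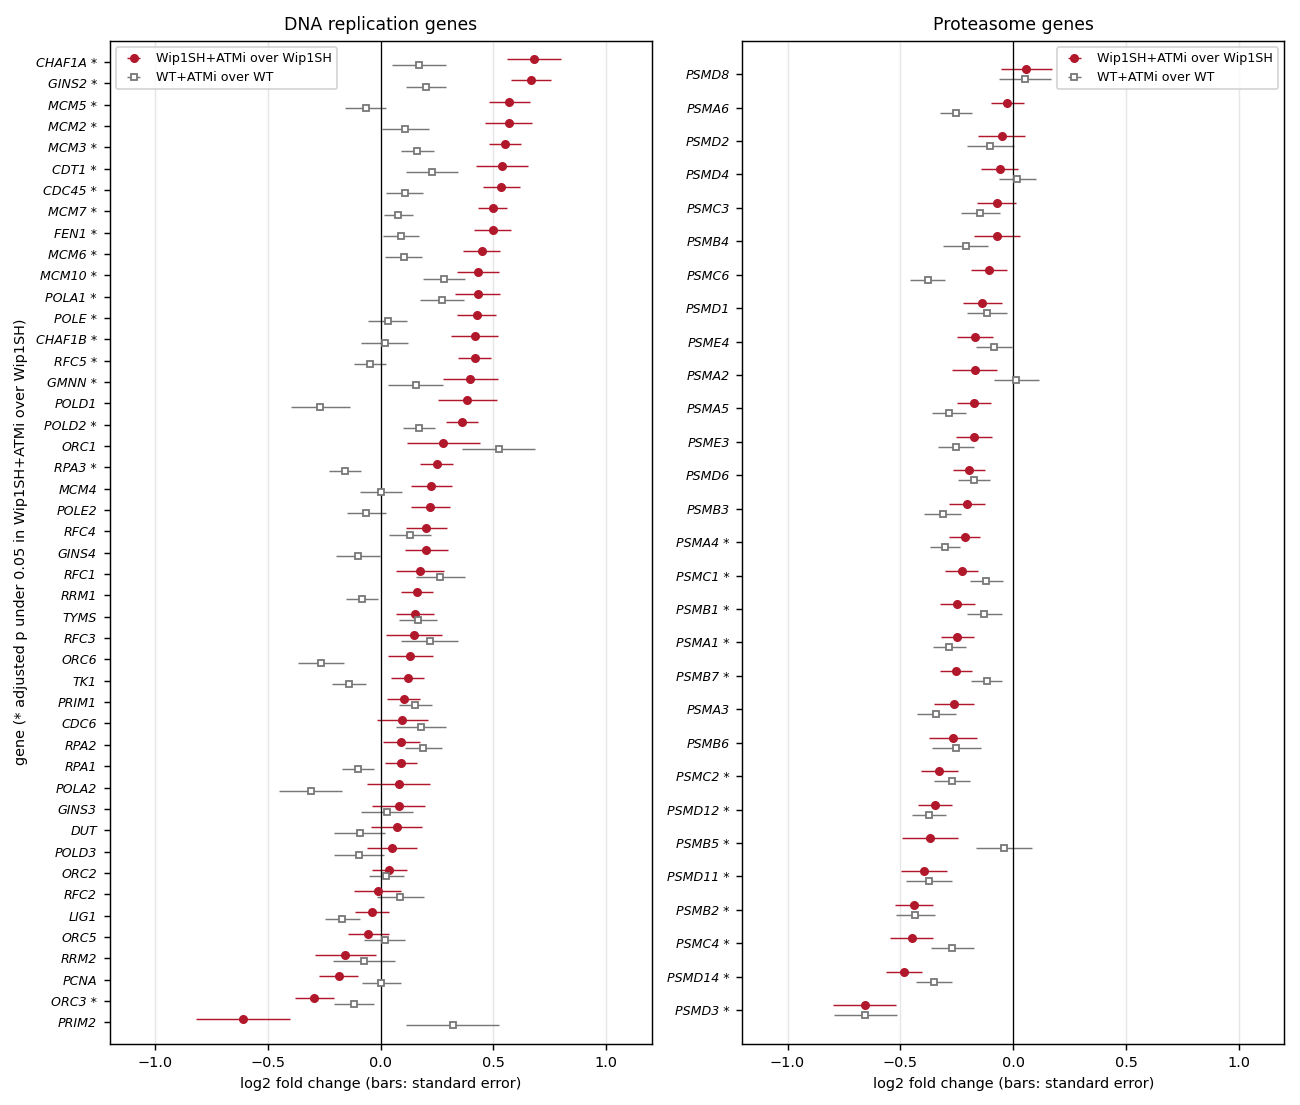
Log2 fold change (horizontal axis) with its standard error for each measured DNA replication gene (left) and proteasome gene (right), in Wip1-depleted cells (filled circles) and parental cells (open squares). Of 46 replication genes, 18 rose in depleted cells, and of 29 proteasome genes, 13 fell.

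E2F2, an activating E2F factor, had 8.63, 8.74 and 8.61 on the Wip1SH+ATMi arrays, against 7.70, 7.83 and 8.02 on the Wip1SH arrays, and rose by 0.81 ± 0.09 (adjusted p = 0.000144). Every Wip1SH+ATMi array lay above the Wip1SH arrays. Of 25 G1 cyclins, inhibitors and E2Fs, 7 rose and 3 fell (median 0.10, and 8 higher and 0 lower with medians over all probes equal), the rises being 3 to 9 with 1 array left out (over 1.5 times away without any 1 of the 6 arrays). E2F4, a repressive member, rose by 0.39 ± 0.09. E2F5 fell by 0.38 ± 0.08, and the G1 kinase CDK6 fell by 0.48 ± 0.09. With equal medians over all probes, the calls of E2F5 and CDK6 were lost. CDKN1A, the p21 inhibitor and a p53 target, had 14.80, 14.86 and 14.88 on the Wip1SH+ATMi arrays, against 14.89, 14.86 and 14.88 on the Wip1SH arrays, a log2 fold change of -0.03 ± 0.08 (adjusted p = 0.824). The dimmer CDKN1A probe was at -0.62. MYC had 11.41, 11.58 and 11.59 on the Wip1SH+ATMi arrays, against 11.74, 11.68 and 11.88 on the Wip1SH arrays, a log2 fold change of -0.24 ± 0.09 (adjusted p = 0.0613), with a second probe at -0.56. Of 53 mitosis genes, 5 rose and 5 fell (median 0.05, and 7 higher and 0 lower with medians over all probes equal), the rises being 2 to 5 with 1 array left out (over 1.5 times away without Wip1SH+ATMi replicate 1, 2 or 3, or Wip1SH replicate 2 or 3). That made 18.9% of the mitosis list called, against 23.3% of all genes. The spindle factor TPX2 fell by 0.43 ± 0.09, the cytokinesis protein ANLN by 0.49 ± 0.10 and the kinesin KIF4A by 0.49 ± 0.11, calls that were lost with array medians equal over all probes. CDK1 was at 0.04, CCNB1 at -0.13 and MKI67 at 0.06, none past the test.

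DNA repair genes, like those of DNA replication, rose more often than they fell. Of 38 measured, 15 rose and 1 fell (XRCC4, below), with a median of 0.18, and the rises were 9 to 17 with 1 array left out (over 1.5 times away without Wip1SH+ATMi replicate 2, or Wip1SH replicate 1 or 2). Sites of the E2F form were in 22 of the 35 with a promoter (62.9%). FANCG, of the Fanconi anaemia core complex, had 9.44, 9.46 and 9.56 on the Wip1SH+ATMi arrays, against 8.88, 8.85 and 8.95 on the Wip1SH arrays, and rose by 0.59 ± 0.08 (adjusted p = 0.000651). The mismatch sensor MSH6 had 10.22, 10.16 and 10.20 on the Wip1SH+ATMi arrays, against 9.57, 9.65 and 9.85 on the Wip1SH arrays, and rose by 0.50 ± 0.08 (adjusted p = 0.00133). RAD54L, a motor of homologous recombination, had 7.50, 7.62 and 7.69 on the Wip1SH+ATMi arrays, against 6.73, 7.17 and 6.77 on the Wip1SH arrays, and rose by 0.71 ± 0.12. Each of them was higher on all 3 Wip1SH+ATMi arrays. UNG, which removes uracil from DNA, rose by 0.42 ± 0.07, and its other probes were at 0.24 and 0.09. With the mean of its probes the call of UNG was lost. BARD1, the partner of BRCA1, was at 0.68 and the glycosylase MUTYH at 0.56 (adjusted p = 0.00208 and 0.0048). XRCC4, a scaffold of end joining, was at -0.69 (adjusted p = 0.0315), a call lost without Wip1SH+ATMi replicate 1 or 3 or Wip1SH replicate 1 or 2.

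Among 22 genes of ATM signalling, 6 rose and 2 fell (median 0.12, and 6 higher and 1 lower with medians over all probes equal). The rises were 4 to 6 with 1 array left out, and the falls 1 to 2 with 1 array left out (over 1.5 times away without Wip1SH+ATMi replicate 1 or 2, or Wip1SH replicate 2 or 3). RAD9A, of the checkpoint clamp, had 7.47, 7.42 and 7.14 on the Wip1SH+ATMi arrays, against 6.32, 6.47 and 6.55 on the Wip1SH arrays, and rose by 0.90 ± 0.14 (adjusted p = 0.00142). The kinase WEE1, which holds CDK1 inactive, rose by 0.43 ± 0.10. H2AX, the histone that ATM phosphorylates at breaks, had 9.54, 9.21 and 9.08 on the Wip1SH+ATMi arrays, against 9.76, 10.16 and 9.91 on the Wip1SH arrays, and fell by 0.67 ± 0.15 (adjusted p = 0.00818). Replicate 1 of Wip1SH+ATMi lay closest to the Wip1SH arrays. PRKDC, the catalytic subunit of DNA-PK, rose by 0.48 ± 0.10 by its brightest probe, while its other 3 detected probes were at -0.34, -0.07 and -0.10 and the mean of its probes was at -0.01. BRCA1 was at 0.47 (adjusted p = 0.0208) and NBN at -0.36 (adjusted p = 0.0321). Both calls were lost without Wip1SH+ATMi replicate 1 or 2 or Wip1SH replicate 2 or 3, and a second NBN probe was at 0.00. CHEK2, the kinase directly below ATM, was at -0.08 (adjusted p = 0.671).

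The p53 targets fell more often than they rose. Of 35 measured, 12 fell and 2 rose, with a median of -0.21. The falls were 7 to 13 with 1 array left out (over 1.5 times away without Wip1SH replicate 1 or 2), and the rises 1 to 2 with 1 array left out (over 1.5 times away without Wip1SH+ATMi replicate 2 or 3, or Wip1SH replicate 1, 2 or 3, or WT+ATMi replicate 1 or 3, or WT replicate 1 or 2). The list gave 2 higher and 3 lower with medians over all probes equal. SFN (14-3-3 sigma), which holds cells before mitosis, had 12.79, 12.72 and 12.83 on the Wip1SH+ATMi arrays, against 13.72, 13.80 and 13.75 on the Wip1SH arrays, and fell by 0.98 ± 0.08 (adjusted p = 3.87e-05). TP53I3, a quinone reductase linked to oxidative stress, had 11.26, 11.29 and 11.08 on the Wip1SH+ATMi arrays, against 11.83, 11.92 and 11.85 on the Wip1SH arrays, and fell by 0.65 ± 0.09 (adjusted p = 0.000497), with a second probe at -0.67. EPHA2, a receptor kinase, had 9.34, 9.31 and 9.44 on the Wip1SH+ATMi arrays, against 9.87, 9.97 and 9.99 on the Wip1SH arrays, and fell by 0.58 ± 0.12. In all 3 genes the Wip1SH+ATMi arrays lay below every Wip1SH array. The polo-like kinase PLK2 fell by 0.52 ± 0.10, the sestrin SESN2 by 0.54 ± 0.13 and GADD45A, which acts in growth arrest, by 0.37 ± 0.08. With equal medians over all probes, the calls of these last 3 were lost.

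Other p53 targets went their own way. NINJ1, a membrane protein of plasma membrane rupture, had 10.49, 10.76 and 10.55 on the Wip1SH+ATMi arrays, against 10.25, 10.21 and 10.15 on the Wip1SH arrays, and rose by 0.40 ± 0.09. ZMAT3, an RNA-binding protein, was at 0.25 by its brightest probe (adjusted p = 0.0465), but its other probes were at -0.16 and -0.76 and the mean of its probes was at -0.22 (adjusted p = 0.0339). The rise of ZMAT3 was lost without any 1 of 9 arrays, among them Wip1SH+ATMi replicates 2 and 3 and all 3 Wip1SH arrays. MDM2, the ubiquitin ligase of p53, had 6.14, 6.27 and 5.92 on the Wip1SH+ATMi arrays, against 6.74, 6.43 and 6.45 on the Wip1SH arrays, a log2 fold change of -0.43 ± 0.16 (adjusted p = 0.0701), although the groups did not overlap. The death genes BBC3 and FAS were at -0.01 and 0.14, and the cytokine GDF15 at 0.09.

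**Figure D3:**
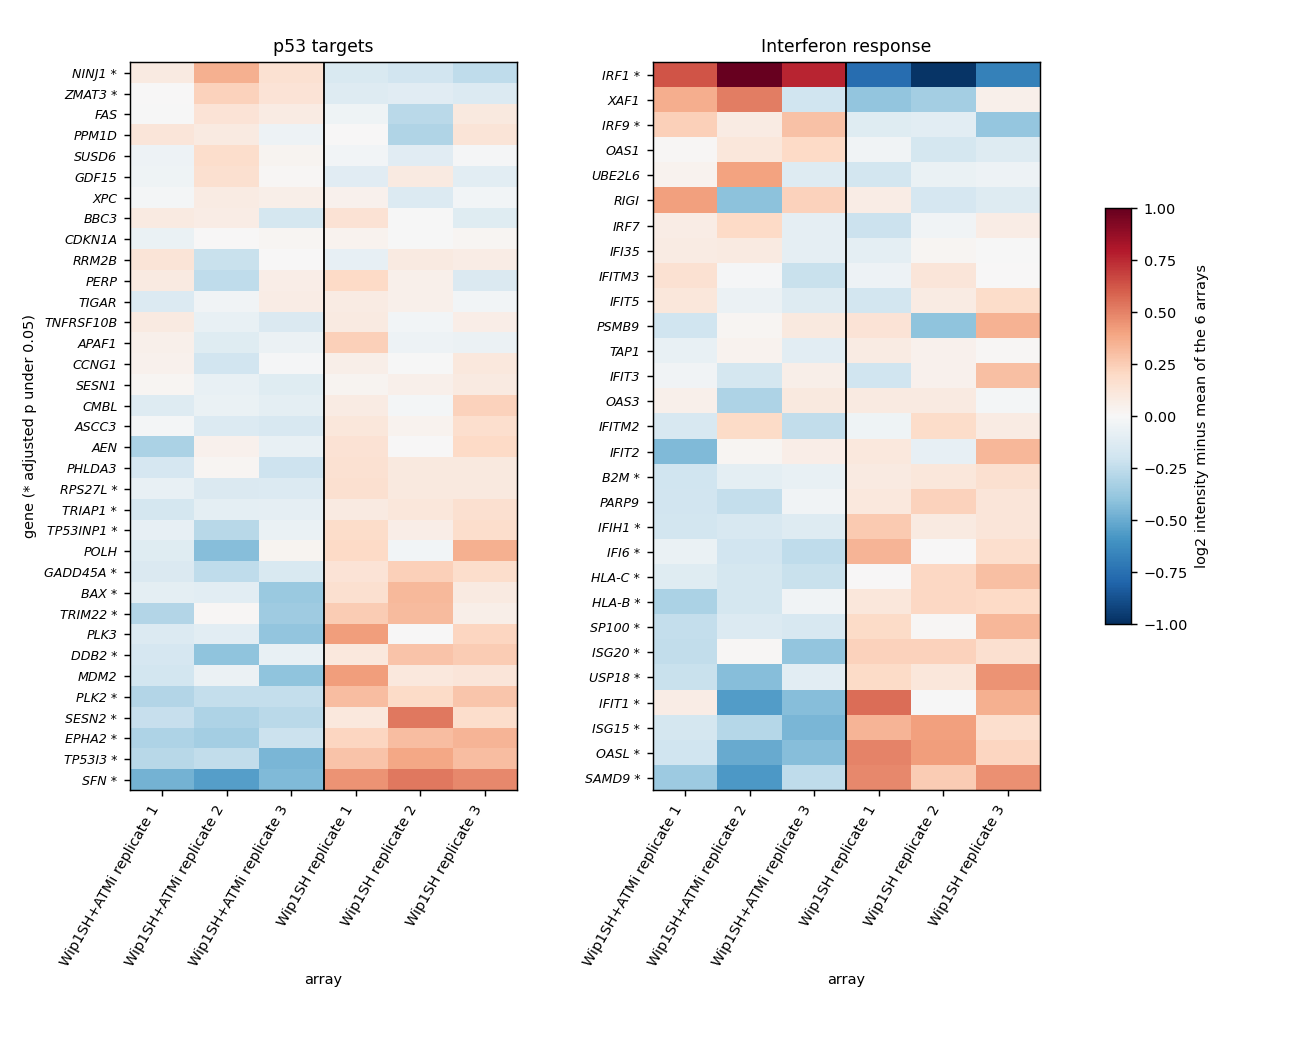
Log2 intensity on each of the 6 arrays minus the mean of the 6 (colour, limits -1 and 1) for 35 p53 targets and 29 interferon response genes, ordered by fold change. Asterisks mark adjusted p under 0.05: 2 p53 targets and 2 interferon genes rose (top), and 12 of each list fell (bottom).

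Of 16 BCL2 family genes, 4 fell and 2 rose (median 0.04, and 3 higher and 1 lower with medians over all probes equal). The falls were 2 to 4 with 1 array left out (over 1.5 times away without Wip1SH+ATMi replicate 3, or Wip1SH replicate 1 or 2). BAK1, a pore-forming effector of apoptosis, had 7.28, 7.03 and 6.57 on the Wip1SH+ATMi arrays, against 8.18, 7.68 and 8.29 on the Wip1SH arrays, and fell by 1.09 ± 0.22 (adjusted p = 0.00473). PMAIP1 (NOXA), a p53-responsive member of the family, fell by 0.58 ± 0.12 with a second probe at -0.67, a call lost with equal medians over all probes. The family members HRK and BAD rose by 0.51 ± 0.11 and 0.32 ± 0.08. BCL2, BCL2L1 and MCL1, which protect cells, were at 0.23, 0.00 and 0.16 and did not pass.

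Proteasome subunits fell and did not rise, with 13 of 29 lower, 0 higher and a median of -0.22. No unadjusted p under 0.05 belonged to a higher subunit. The falls were 6 to 13 with 1 array left out (over 1.5 times away without Wip1SH+ATMi replicate 1 or 3, or Wip1SH replicate 1, 2 or 3), and 1 with equal medians over all probes, where the median was -0.04 against 0.15 for all genes. PSMD3, of the regulatory lid, had 8.04, 7.57 and 7.91 on the Wip1SH+ATMi arrays, against 8.29, 8.66 and 8.53 on the Wip1SH arrays, and fell by 0.66 ± 0.14 (adjusted p = 0.0065). PSMD14, the deubiquitinase of the lid, had 12.11, 12.16 and 12.14 on the Wip1SH+ATMi arrays, against 12.60, 12.62 and 12.63 on the Wip1SH arrays, and fell by 0.49 ± 0.08 (adjusted p = 0.00171). PSMB2, a core subunit, fell by 0.44 ± 0.08, and the base ATPase PSMC4 by 0.45 ± 0.09 with other probes at -0.46 and -0.33. The groups did not overlap in any of the 4. With array medians equal over all probes, PSMD14, PSMB2 and PSMC4 lost their calls.

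Chaperones and stress regulators changed singly. Of 17 cytosolic heat shock chaperones and their factor, 4 fell and 0 rose (median -0.09, and 0.12 with equal medians over all probes), the falls being 2 to 4 with 1 array left out (over 1.5 times away without Wip1SH+ATMi replicate 1 or 2, or Wip1SH replicate 1, 2 or 3, or WT replicate 2), and the rises 0 to 1 with 1 array left out (over 1.5 times away without Wip1SH+ATMi replicate 2). The share of the list called, 23.5%, was near the 23.3% of all genes. DNAJB1, an HSP70 cochaperone, fell by 0.54 ± 0.09, a call lost with array medians equal over all probes. HSP90AA1 and HSPA8 were at -0.09 and 0.00. Of 24 chaperones and sensors of the endoplasmic reticulum, 5 rose and 3 fell (median 0.09, and 7 higher and 1 lower with medians over all probes equal), the rises being 1 to 5 with 1 array left out (over 1.5 times away without Wip1SH+ATMi replicate 1 or 2, or Wip1SH replicate 1, 2 or 3, or WT+ATMi replicate 3), and the falls 1 to 3 with 1 array left out (over 1.5 times away without Wip1SH+ATMi replicate 2, or Wip1SH replicate 2 or 3). CALR, the calcium-binding chaperone calreticulin, had 9.67, 9.65 and 9.57 on the Wip1SH+ATMi arrays, against 10.30, 10.55 and 10.44 on the Wip1SH arrays, and fell by 0.80 ± 0.11 (adjusted p = 0.000585). EDEM1, which sends misfolded glycoproteins to degradation, had 6.93, 6.99 and 6.97 on the Wip1SH+ATMi arrays, against 6.35, 6.41 and 6.20 on the Wip1SH arrays, and rose by 0.64 ± 0.11. The groups were apart in both, in opposite directions. The master chaperone HSPA5 was at -0.24 (adjusted p = 0.15).

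Of 30 genes of the ATF4 amino acid response, 10 rose and 4 fell (median 0.11, and 10 higher and 1 lower with medians over all probes equal), the rises being 4 to 10 with 1 array left out (over 1.5 times away without Wip1SH+ATMi replicate 1, 2 or 3, or Wip1SH replicate 2), and the falls 2 to 5 with 1 array left out (over 1.5 times away without Wip1SH+ATMi replicate 1 or 3, or Wip1SH replicate 1 or 2). ATF5, a transcription factor of this response, had 10.44, 10.76 and 10.47 on the Wip1SH+ATMi arrays, against 9.59, 9.48 and 9.66 on the Wip1SH arrays, and rose by 0.99 ± 0.12 (adjusted p = 0.000265). PHGDH, the first enzyme of serine synthesis, rose by 0.36 ± 0.08, the pseudokinase TRIB3 by 0.30 ± 0.07 and JDP2, a partner of AP-1 and ATF factors, by 0.59 ± 0.14. ATF3 fell by 0.41 ± 0.10, a call lost with array medians equal over all probes. ATF4 itself was at 0.05 and the asparagine synthetase ASNS at -0.20. DDIT3 (CHOP) was at -0.34 (adjusted p = 0.0428), a call lost without any 1 of the 6 arrays except Wip1SH+ATMi replicate 2 and without 3 of the parental arrays. Among 18 cytoplasmic tRNA synthetases, 1 rose and 2 fell (median -0.05, and 1 higher and 0 lower with medians over all probes equal), the falls being 1 to 2 with 1 array left out (over 1.5 times away without Wip1SH+ATMi replicate 1, 2 or 3, or Wip1SH replicate 1, 2 or 3, or WT+ATMi replicate 1, or WT replicate 1, 2 or 3). The synthetases called were 16.7% of those measured, against 23.3% of all genes. QARS1 rose by 0.44 ± 0.08 and IARS1 fell by 0.55 ± 0.09. The IARS1 call was lost with array medians equal over all probes.

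Targets of NRF2, the regulator of the oxidative stress response, rose and fell. Of 29 measured, 8 rose and 5 fell (median -0.01, and 10 higher and 3 lower with medians over all probes equal). The rises were 5 to 10 with 1 array left out (over 1.5 times away without Wip1SH replicate 2), and the falls 3 to 6 with 1 array left out (over 1.5 times away without Wip1SH+ATMi replicate 1, or Wip1SH replicate 3). HMOX1, which breaks down haem, had 10.08, 10.22 and 10.28 on the Wip1SH+ATMi arrays, against 9.21, 9.24 and 9.28 on the Wip1SH arrays, and rose by 0.95 ± 0.07 (adjusted p = 2.86e-05). NQO1, a quinone reductase, had 13.63, 13.62 and 13.78 on the Wip1SH+ATMi arrays, against 13.06, 13.12 and 13.14 on the Wip1SH arrays, and rose by 0.57 ± 0.07, with a second probe at 0.44. GCLC, the catalytic subunit of glutathione synthesis, had 9.88, 9.87 and 9.98 on the Wip1SH+ATMi arrays, against 9.48, 9.39 and 9.17 on the Wip1SH arrays, and rose by 0.56 ± 0.11. All Wip1SH+ATMi arrays lay above the Wip1SH arrays in these 3 genes and in ABCC3. The other direction was held by AKR1B10 and TRIM16L, described above, and by CBR3, a carbonyl reductase, which fell by 0.62 ± 0.15. GCLM, TXNRD1 and SRXN1, often raised with HMOX1, were at -0.19, -0.11 and -0.12, none past the test, and the gene of the factor, NFE2L2, was at -0.02. Of 9 targets of the aryl hydrocarbon receptor, 3 rose and 1 fell, and 3 higher and 0 lower with medians over all probes equal. The rises were 1 to 3 with 1 array left out (over 1.5 times away without Wip1SH replicate 3), and the falls 0 to 1 with 1 array left out (over 1.5 times away without Wip1SH+ATMi replicate 1, 2 or 3, or Wip1SH replicate 1, 2 or 3, or WT+ATMi replicate 1 or 3, or WT replicate 1, 2 or 3). CYP1A1 and CYP1B1, standard targets of the receptor, were at 0.16 and 0.09 (adjusted p = 0.634 and 0.558).

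Of the 7 genes of metal handling, MTF1 and MT1X fell. The share of the list called, 28.6%, was near the 23.3% of all genes. MT1X, a metallothionein, had 13.62, 13.71 and 13.51 on the Wip1SH+ATMi arrays, against 13.95, 14.08 and 14.09 on the Wip1SH arrays, and fell by 0.43 ± 0.08 (adjusted p = 0.0035), a call lost with equal medians over all probes. The other metallothioneins MT1G, MT1E and MT2A were at -0.22, -0.21 and -0.19, MT1F was at 0.08, and the zinc exporter SLC30A1 was at -0.20, none past the test.

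Lipid and sugar metabolism changed at single steps. Of 17 fatty acid genes, 7 rose and 2 fell (median -0.06, and 7 higher and 0 lower with medians over all probes equal), with 5 to 7 rises when 1 array was left out, and the falls were 1 to 2 with 1 array left out (over 1.5 times away without Wip1SH+ATMi replicate 2 or 3, or Wip1SH replicate 1 or 3). GPAM, which starts triglyceride synthesis, had 8.83, 8.91 and 8.86 on the Wip1SH+ATMi arrays, against 8.34, 8.28 and 8.42 on the Wip1SH arrays, and rose by 0.52 ± 0.08 (adjusted p = 0.000851). The lipid regulator SREBF1 rose by 0.52 ± 0.09, with a second probe at -0.01 and no call by the mean of its probes, the phosphatidate phosphatase LPIN1 by 0.46 ± 0.09 and the acetyl-CoA synthetase ACSS2 by 0.40 ± 0.09. The elongase ELOVL1 fell by 0.51 ± 0.10, a call lost with array medians equal over all probes. FASN was at -0.02. Among 19 genes of cholesterol synthesis, 2 rose and 0 fell (median 0.10, and 4 higher and 0 lower with medians over all probes equal), the rises being 2 to 3 with 1 array left out. Calls were 10.5% of this list, against 23.3% of all genes. The 2 risen genes were TM7SF2, a sterol reductase, which rose by 0.40 ± 0.07, and HSD17B7, which rose by 0.39 ± 0.09. HMGCS1 and SQLE were at 0.20 and 0.16.

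Of 30 genes of glycolysis and hypoxia, 7 rose and 4 fell (median -0.05, and 8 higher and 2 lower with medians over all probes equal), the rises being 4 to 8 with 1 array left out (over 1.5 times away without Wip1SH+ATMi replicate 3, or Wip1SH replicate 1, 2 or 3). HIF1A, the hypoxia factor, had 8.37, 8.38 and 8.32 on the Wip1SH+ATMi arrays, against 9.08, 9.14 and 8.86 on the Wip1SH arrays, and fell by 0.67 ± 0.13 (adjusted p = 0.00479), with other probes at -0.68 and -0.41. The pyruvate kinase PKM had 12.23, 12.08 and 12.26 on the Wip1SH+ATMi arrays, against 12.85, 12.96 and 12.69 on the Wip1SH arrays, and fell by 0.64 ± 0.10, with other probes at -1.08 and -1.10. PGK1 fell by 0.40 ± 0.09, a call lost with array medians equal over all probes. ALDOC, an aldolase isoform, had 8.59, 8.88 and 8.69 on the Wip1SH+ATMi arrays, against 8.03, 8.03 and 7.94 on the Wip1SH arrays, and rose by 0.72 ± 0.10 (adjusted p = 0.000662). The angiogenic factor VEGFA rose by 0.63 ± 0.12 with a second probe at 0.71, NDRG1 by 0.46 ± 0.08 and the phosphofructokinase PFKL by 0.52 ± 0.11. The falls and rises thus lay within the same pathway, and LDHA and GAPDH were at -0.25 and -0.09. Among 5 genes of the TXNIP and arrestin-domain list, 1 rose and 1 fell, which was ARRDC4, described above. The rises were 0 to 1 with 1 array left out (over 1.5 times away without Wip1SH replicate 1 or 3).

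Respiratory chain subunits fell more often than they rose: of 53 nuclear-encoded ones, 12 fell and 3 rose, with a median of -0.11. The share called in either direction, 28.3%, was near the 23.3% of all genes, of which 9.02% fell. The falls were 5 to 12 with 1 array left out (over 1.5 times away without Wip1SH+ATMi replicate 1 or 3, or Wip1SH replicate 1, 2 or 3), and the rises 1 to 3 with 1 array left out (over 1.5 times away without Wip1SH+ATMi replicate 2). With medians over all probes equal 0 fell and 3 rose, and the median was 0.06 against 0.15 for all genes. NDUFAB1, the acyl carrier of complex I, had 12.79, 12.64 and 12.74 on the Wip1SH+ATMi arrays, against 13.05, 13.03 and 13.10 on the Wip1SH arrays, and fell by 0.34 ± 0.07 (adjusted p = 0.00625). NDUFA6, an accessory subunit of the same complex, had 9.99, 10.01 and 9.99 on the Wip1SH+ATMi arrays, against 9.61, 9.52 and 9.64 on the Wip1SH arrays, and rose by 0.40 ± 0.07 (adjusted p = 0.00216). The groups were apart in both. Lysosome and autophagy genes gave 7 rises and 6 falls of 39 (median 0.05, and 9 higher and 1 lower with medians over all probes equal). The rises were 4 to 7 with 1 array left out (over 1.5 times away without Wip1SH replicate 1 or 2), and the falls 2 to 6 with 1 array left out (over 1.5 times away without Wip1SH+ATMi replicate 1 or 2, or Wip1SH replicate 1 or 2). GAA, the acid alpha-glucosidase, had 7.81, 7.97 and 7.74 on the Wip1SH+ATMi arrays, against 8.89, 9.17 and 8.83 on the Wip1SH arrays, and fell by 1.12 ± 0.13 (adjusted p = 0.000198), with a second probe at -0.52. The autophagy receptor SQSTM1 rose by 0.37 ± 0.07, the peptidase TPP1 by 0.45 ± 0.10 and the lysosomal calcium channel MCOLN1 by 0.53 ± 0.12.

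Of 32 genes of ribosome biogenesis and MYC response, 8 fell and 1 rose (median -0.12, and 0.04 with equal medians over all probes, where 1 fell). The share called in either direction, 28.1%, was near the 23.3% of all genes, of which 9.02% fell. The falls were 4 to 8 with 1 array left out (over 1.5 times away without any 1 of the 6 arrays), and the rises 1 to 2 with 1 array left out (over 1.5 times away without Wip1SH+ATMi replicate 3). RRP9, of the U3 nucleolar particle, had 8.01, 7.65 and 7.78 on the Wip1SH+ATMi arrays, against 8.51, 8.68 and 8.39 on the Wip1SH arrays, and fell by 0.71 ± 0.16. WDR12, of the complex that matures the large subunit, fell by 0.35 ± 0.09, a call lost with those medians. The transferrin receptor TFRC rose by 0.46 ± 0.09. Of 59 cytosolic ribosomal proteins, 4 were lower and 3 higher, a share of 11.9% called against 23.3% of all genes. Their median was 0.04, and 7 were higher and 1 lower with medians over all probes equal. The lower ones were 3 to 5 with 1 array left out, and the higher ones 0 to 2 with 1 array left out (over 1.5 times away without Wip1SH+ATMi replicate 2, or Wip1SH replicate 2 or 3). RPL29 had 10.92, 11.13 and 10.87 on the Wip1SH+ATMi arrays, against 11.71, 11.71 and 11.77 on the Wip1SH arrays, and fell by 0.76 ± 0.08 (adjusted p = 0.000135), with a second probe at -0.88. RPS7 fell by 0.51 ± 0.07 with a second probe at -0.44, a call lost with those medians. Ribosomal protein genes have many processed copies, so a probe may read more than 1 of them.

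Interferon response genes fell more often than they rose, with 12 of 29 lower and 2 higher and a median of -0.14. The falls were 4 to 13 with 1 array left out (over 1.5 times away without Wip1SH+ATMi replicate 1, 2 or 3, or Wip1SH replicate 1 or 3), and the list gave 4 higher and 3 lower with medians over all probes equal. ISG15, a ubiquitin-like protein, had 11.49, 11.38 and 11.21 on the Wip1SH+ATMi arrays, against 12.004, 12.07 and 11.83 on the Wip1SH arrays, and fell by 0.61 ± 0.09 (adjusted p = 0.00118). SAMD9, an antiviral protein, had 7.35, 7.14 and 7.46 on the Wip1SH+ATMi arrays, against 8.19, 7.97 and 8.17 on the Wip1SH arrays, and fell by 0.79 ± 0.13 (adjusted p = 0.00186). OASL was detected on 0 Wip1SH+ATMi and 2 Wip1SH arrays and was at least 1.15-fold lower. It passed the detection filter only through untreated arrays, so its test is no support for the difference, though the 12 falls include it. HLA-B, which presents antigens, fell by 0.35 ± 0.09, a call lost with array medians equal over all probes. IRF1, among the largest rises of all genes, went against the 12 genes that fell. So did IRF9, a subunit of the interferon-stimulated factor, which rose by 0.41 ± 0.10. IFIT2 and IFIT3 were at -0.24 and -0.10, and STAT-linked IRF7 at 0.12, none past the test.

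Of 16 NF-kB and cytokine genes, 4 rose and 5 fell (median -0.002, and 5 higher and 1 lower with medians over all probes equal). The rises were 2 to 4 with 1 array left out (over 1.5 times away without Wip1SH replicate 1), and the falls 0 to 5 with 1 array left out (over 1.5 times away without any 1 of the 6 arrays). NFKBIA, the inhibitor of NF-kB that NF-kB induces, had 11.11, 11.08 and 10.95 on the Wip1SH+ATMi arrays, against 10.62, 10.65 and 10.43 on the Wip1SH arrays, and rose by 0.48 ± 0.08 (adjusted p = 0.00175). The chemokine CXCL1 had 6.29, 6.30 and 6.34 on the Wip1SH+ATMi arrays, against 5.66, 5.54 and 5.88 on the Wip1SH arrays, and rose by 0.62 ± 0.13. Both were higher on all Wip1SH+ATMi arrays. RELB and NFKB2, of the noncanonical pathway, were at -0.29 and -0.35. Their calls were lost without Wip1SH+ATMi replicate 2 or 3 or Wip1SH replicate 2, and RELB also without Wip1SH+ATMi replicate 1 or Wip1SH replicate 1 and NFKB2 without Wip1SH replicate 3.

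Among 17 immediate-early genes, 3 rose and 4 fell (median -0.14, and 5 higher and 0 lower with medians over all probes equal or 5 higher and 2 lower with medians over detected probes equal). The rises were 1 to 4 with 1 array left out (over 1.5 times away without Wip1SH replicate 1 or 3), and the falls 1 to 4 with 1 array left out (over 1.5 times away without any 1 of the 6 arrays). ZFP36, which destabilises AU-rich mRNAs, had 10.63, 10.67 and 10.56 on the Wip1SH+ATMi arrays, against 9.79, 9.96 and 9.84 on the Wip1SH arrays, and rose by 0.76 ± 0.09 (adjusted p = 0.000232). FOS and EGR1 were at 0.25 and -0.12 (adjusted p = 0.397 and 0.328). Of 20 ERK feedback genes, 1 rose and 2 fell (median -0.08, and 2 higher and 1 lower with medians over all probes equal), the falls being 2 to 5 with 1 array left out (over 1.5 times away without Wip1SH+ATMi replicate 1). The ERK phosphatase DUSP5 had 12.28, 12.16 and 12.45 on the Wip1SH+ATMi arrays, against 12.68, 12.75 and 12.83 on the Wip1SH arrays, and fell by 0.46 ± 0.09, a call lost with array medians equal over all probes. ETV5 rose by 0.45 ± 0.08 by its brighter probe, and the other was at -0.24, with no call by their mean.

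The receptors ERBB2 and ERBB3 rose, and ligands went both ways. HBEGF and NRG1 fell, while BTC and NRG4 were at 0.57 and 0.56 (adjusted p = 0.0178 and 0.031). The calls of BTC and NRG4 were lost without Wip1SH+ATMi replicate 1 or Wip1SH replicate 2. That of NRG4 was also lost without Wip1SH+ATMi replicate 2 or Wip1SH replicate 1. ERBB3 had 8.02, 8.14 and 8.19 on the Wip1SH+ATMi arrays, against 7.26, 7.02 and 6.94 on the Wip1SH arrays, and rose by 1.04 ± 0.12 (adjusted p = 0.000251), with other probes at 0.51 and 0.01. ERBB2, its dimerisation partner, had 8.57, 8.65 and 8.84 on the Wip1SH+ATMi arrays, against 8.07, 8.28 and 8.11 on the Wip1SH arrays, and rose by 0.54 ± 0.09 (adjusted p = 0.00237). The ligand HBEGF had 10.02, 10.06 and 10.08 on the Wip1SH+ATMi arrays, against 10.59, 10.54 and 10.70 on the Wip1SH arrays, and fell by 0.55 ± 0.07 (adjusted p = 0.00041). All 3 genes were separated between the groups. ERRFI1, an inhibitor of the receptors, fell by 0.44 ± 0.09, a call lost with array medians equal over all probes, and EGFR was at 0.16. In all, 4 of 11 measured genes of this list rose and 3 fell (median 0.16, and 4 higher and 2 lower with medians over all probes equal), the rises being 2 to 4 with 1 array left out (over 1.5 times away without Wip1SH+ATMi replicate 1, or Wip1SH replicate 2).

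Mesenchymal genes and targets of YAP fell more often than they rose, with 10 of 21 lower, 2 higher and a median of -0.34, and 2 higher and 4 lower with medians over all probes equal, where the median was -0.21. The falls were 7 to 10 with 1 array left out. F3, tissue factor, had 8.73, 8.23 and 8.64 on the Wip1SH+ATMi arrays, against 9.65, 9.54 and 9.42 on the Wip1SH arrays, and fell by 1.00 ± 0.13 (adjusted p = 0.000507), with a second probe at -0.53. The myosin light chain MYL9 had 7.51, 7.43 and 7.39 on the Wip1SH+ATMi arrays, against 8.02, 8.55 and 8.04 on the Wip1SH arrays, and fell by 0.76 ± 0.15, although its second probe was at -0.05. CAV1, the caveolar coat protein, had 12.35, 12.40 and 12.42 on the Wip1SH+ATMi arrays, against 12.91, 12.93 and 12.95 on the Wip1SH arrays, and fell by 0.54 ± 0.06 (adjusted p = 0.000263). The 3 genes joined SNAI2 in being lower on all Wip1SH+ATMi arrays. The YAP targets CCN1 and CCN2 were at -0.40 and -0.34 (adjusted p = 0.00821 and 0.0428), THBS1 at -0.45 (adjusted p = 0.00627) and VIM at -0.36 (adjusted p = 0.0227). The CCN2 call was lost without any 1 of 8 arrays, all 3 of Wip1SH+ATMi among them, and the VIM call without Wip1SH+ATMi replicate 1 or Wip1SH replicate 2 or 3. TAGLN, an actin-binding protein, had 8.01, 8.10 and 7.65 on the Wip1SH+ATMi arrays, against 6.98, 7.18 and 7.20 on the Wip1SH arrays, and rose by 0.80 ± 0.13 (adjusted p = 0.00173), with other probes at 0.36 and 0.01, and the collagen COL1A1 rose by 0.55 ± 0.10. Of 16 Wnt feedback and stem genes, 1 rose and 4 fell (median 0.11, and 1 higher and 0 lower with medians over all probes equal, and a median of -0.025 with medians over detected probes equal), the falls being 2 to 5 with 1 array left out (over 1.5 times away without Wip1SH+ATMi replicate 2, or Wip1SH replicate 1), and the rises 0 to 1 with 1 array left out (over 1.5 times away without Wip1SH+ATMi replicate 3, or Wip1SH replicate 2, or WT+ATMi replicate 2 or 3, or WT replicate 3). SOX9, a factor of intestinal crypt cells, fell by 0.44 ± 0.09 and the Wnt antagonist DKK1 by 0.40 ± 0.08, calls lost with array medians equal over all probes and, for DKK1, with the mean of its probes. AXIN2, the usual readout of Wnt signalling, was at 0.15 (adjusted p = 0.317).

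Several keratins fell. In the list of keratins and colon differentiation genes 7 of 16 fell and 2 rose (median -0.22, and 3 higher and 6 lower with medians over all probes equal), the falls being 6 to 7 with 1 array left out. KRT8 and KRT18 pair in simple epithelia. KRT8 had 13.15, 13.22 and 13.07 on the Wip1SH+ATMi arrays, against 13.55, 13.91 and 13.65 on the Wip1SH arrays, and fell by 0.56 ± 0.10 (adjusted p = 0.00222). KRT18 had 8.60, 9.31 and 8.78 on the Wip1SH+ATMi arrays, against 9.69, 9.73 and 9.77 on the Wip1SH arrays, and fell by 0.83 ± 0.20, although its second probe was at -0.09. KRT19 had 14.14, 13.98 and 14.14 on the Wip1SH+ATMi arrays, against 14.80, 14.72 and 14.74 on the Wip1SH arrays, and fell by 0.67 ± 0.08 (adjusted p = 0.000353). KRT15 fell by 0.75 ± 0.11 and KRT34 by 0.98 ± 0.13. The intestinal transcription factor CDX2 rose by 0.39 ± 0.08, the mucus protein FCGBP by 0.93 ± 0.11 and the tight junction gene CLDN3 by 0.82 ± 0.15. EPCAM was at 0.04 and CDH1, the target of SNAI2, at 0.20 (adjusted p = 0.0974).

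Tubulins rose more often than they fell, with 8 of 15 higher, 1 lower and a median of 0.31. The rises were 6 to 9 with 1 array left out, and the falls 0 to 1 with 1 array left out (over 1.5 times away without Wip1SH+ATMi replicate 2 or 3, or Wip1SH replicate 1 or 3). TUBB had 12.11, 12.25 and 12.20 on the Wip1SH+ATMi arrays, against 11.38, 11.44 and 11.33 on the Wip1SH arrays, and rose by 0.80 ± 0.08 (adjusted p = 8.67e-05), with a second probe at 0.62. TUBA1B, the main alpha-tubulin of many cells, had 14.06, 14.14 and 14.15 on the Wip1SH+ATMi arrays, against 13.70, 13.66 and 13.69 on the Wip1SH arrays, and rose by 0.43 ± 0.09. TUBA3D rose by 0.54 ± 0.11. TUBB3, described above, rose most, and all Wip1SH+ATMi arrays lay above the Wip1SH arrays in these genes. TUBB2A was at -0.20 and TUBB6 at -0.27 (adjusted p = 0.0275, a call lost without Wip1SH+ATMi replicate 2 or 3 or Wip1SH replicate 1 or 3). Alpha-tubulin genes are close copies, so that probes for TUBA1B and TUBA3D may read their neighbours in sequence.

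**Figure D4:**
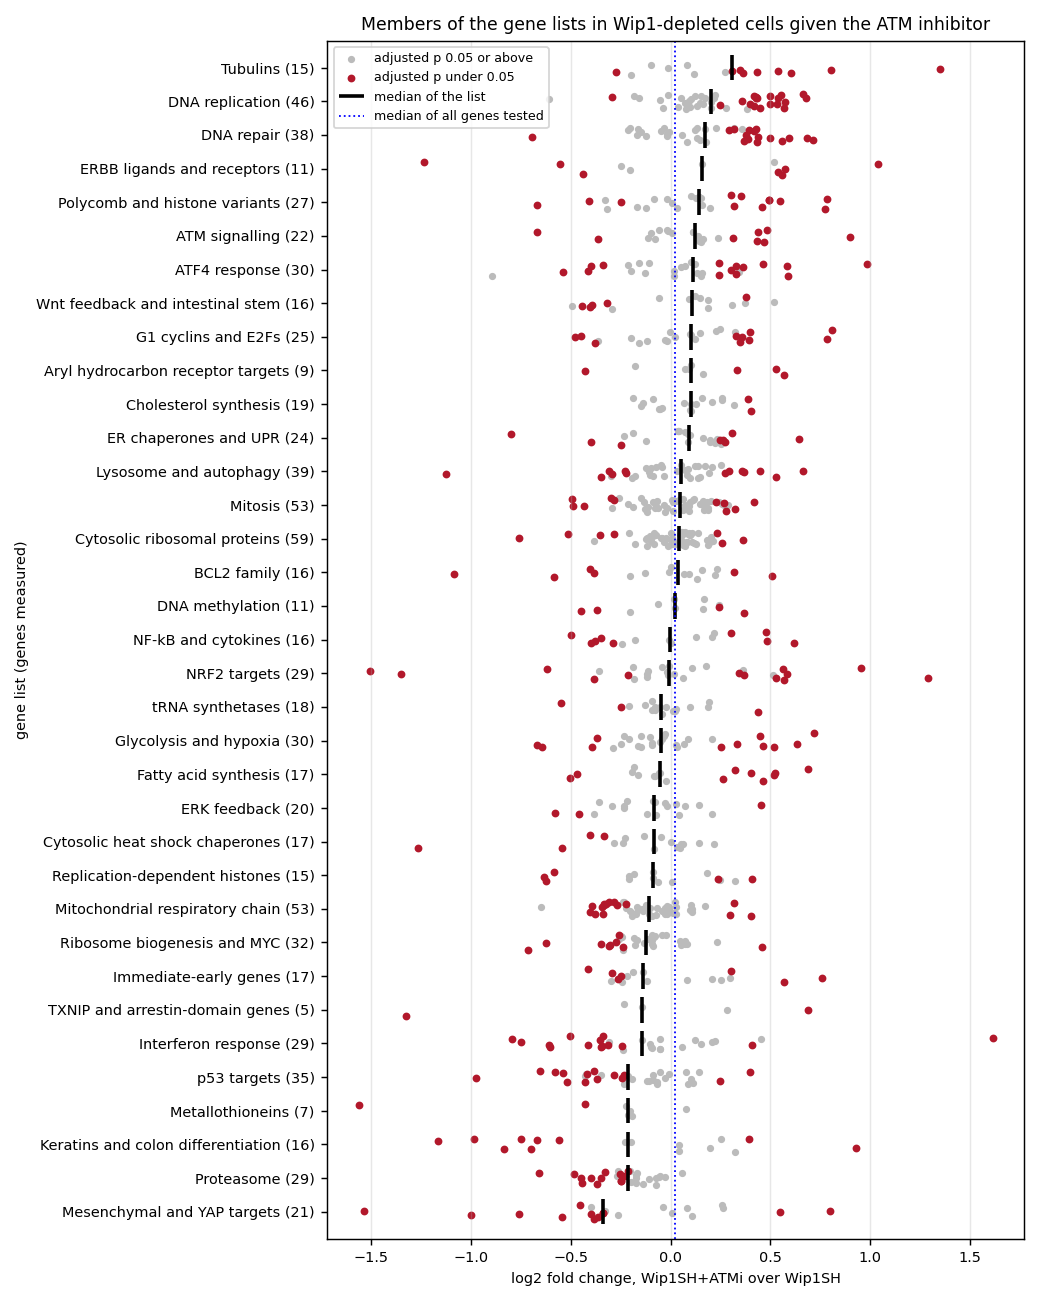
Log2 fold change of each member (points, red where adjusted p was under 0.05) of the gene lists with at least 5 measured genes, ordered by median (black bars); the dotted line is the median of all genes, 0.02. Tubulins (0.31) and DNA replication (0.20) are at the top, and mesenchymal and YAP targets (-0.34) at the bottom.

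Of 27 Polycomb and histone variant genes, 9 rose and 3 fell (median 0.14, and 11 higher and 1 lower with medians over all probes equal). The rises were 5 to 9 with 1 array left out (over 1.5 times away without Wip1SH replicate 2). CBX2, which reads the Polycomb mark, had 8.06, 8.02 and 7.96 on the Wip1SH+ATMi arrays, against 7.35, 7.02 and 7.33 on the Wip1SH arrays, and rose by 0.78 ± 0.10 (adjusted p = 0.000393). ASF1B, the replication-linked histone chaperone, had 8.93, 8.75 and 8.75 on the Wip1SH+ATMi arrays, against 8.04, 7.999 and 8.08 on the Wip1SH arrays, and rose by 0.77 ± 0.10, while its paralogue ASF1A fell by 0.41 ± 0.09, a call lost with array medians equal over all probes. MACROH2A2, which encodes the variant macroH2A2, had 10.99, 10.97 and 10.92 on the Wip1SH+ATMi arrays, against 10.44, 10.54 and 10.53 on the Wip1SH arrays, and rose by 0.46 ± 0.07 (adjusted p = 0.00105). MACROH2A1 had 13.45, 13.56 and 13.55 on the Wip1SH+ATMi arrays, against 13.64, 13.50 and 13.66 on the Wip1SH arrays, a log2 fold change of -0.08 ± 0.07 (adjusted p = 0.471), with other probes at -0.55 and -0.05. PCGF2 rose by 0.49 ± 0.09, and the methyltransferase EZH2 was at 0.49 (adjusted p = 0.0181), with other probes at 0.17 and 0.04 and a call lost without Wip1SH+ATMi replicate 1 or 3 or Wip1SH replicate 2. Of 15 replication-dependent histone genes 2 rose and 3 fell (median -0.09, and 3 higher and 3 lower with medians over all probes equal), the falls being 2 to 3 with 1 array left out, and the rises 0 to 3 with 1 array left out (over 1.5 times away without Wip1SH+ATMi replicate 1, 2 or 3, or Wip1SH replicate 1, or WT+ATMi replicate 1, 2 or 3, or WT replicate 1 or 3). H2BC21 had 8.001, 8.02 and 8.01 on the Wip1SH+ATMi arrays, against 8.62, 8.60 and 8.57 on the Wip1SH arrays, and fell by 0.58 ± 0.08 (adjusted p = 0.000655), and H2AC18, which has an identical neighbour gene, fell by 0.62 ± 0.12.

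DNA methylation genes went both ways, with 2 of 11 higher and 2 lower (median 0.02, and 1 higher and 0 lower with medians over all probes equal). The rises were 0 to 2 with 1 array left out (over 1.5 times away without Wip1SH+ATMi replicate 1, 2 or 3, or Wip1SH replicate 1 or 2, or WT+ATMi replicate 1 or 3), and the falls 1 to 2 with 1 array left out (over 1.5 times away without Wip1SH+ATMi replicate 2 or 3). The maintenance methyltransferase DNMT1 had 11.45, 11.29 and 11.33 on the Wip1SH+ATMi arrays, against 11.19, 11.21 and 11.20 on the Wip1SH arrays, a log2 fold change of 0.16 ± 0.07 (adjusted p = 0.136). The groups did not overlap, and the difference did not pass. DNMT3B had 8.02, 7.88 and 8.06 on the Wip1SH+ATMi arrays, against 7.70, 7.63 and 7.90 on the Wip1SH arrays, a log2 fold change of 0.24 ± 0.08 (adjusted p = 0.0563). UHRF1, which guides DNMT1, was at 0.24 (adjusted p = 0.04) with a second probe at -0.24. Its call was lost without any 1 of 7 arrays, all of Wip1SH+ATMi and Wip1SH replicates 2 and 3 among them. Of the pluripotency genes 4 were measured and 0 passed, with unadjusted p-values of 0.0119 for PROM1, 0.829 for PODXL, 0.604 for KLF4 and 0.0138 for DNMT3B. KLF4 had 9.94, 9.79 and 10.05 on the Wip1SH+ATMi arrays, against 9.87, 9.90 and 9.89 on the Wip1SH arrays.

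Parental cells gave a base for asking whether these changes differed with Wip1 depletion. WT+ATMi and WT shared no arrays with the depleted groups. In WT+ATMi against WT, 3002 genes passed (25.5%), 1820 higher (15.4%) and 1182 lower (10.0%). Across the 11785 genes the fold changes of the 2 comparisons had a Pearson r of 0.538, and genes are not independent replicates. In both, 1401 genes passed, which were 50.95% of the calls in depleted cells and 46.67% of those in parental cells. Of these, 1307 had the same direction and 94 the opposite one. The difference of the inhibitor's effects (the interaction, effect in depleted minus effect in parental cells) passed for 367 genes (3.11%), 224 with a more positive effect in the depleted cells (1.9%) and 143 with a more negative one (1.21%). This count was 161 to 319 with 1 array left out, and more than 1.5 times lower without any 1 array except Wip1SH replicate 2, WT+ATMi replicate 2 and WT replicates 1 and 2. With equal medians over all probes, where the interaction had a median of -0.28, 11 genes were more positive and 256 more negative.

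**Figure D5:**
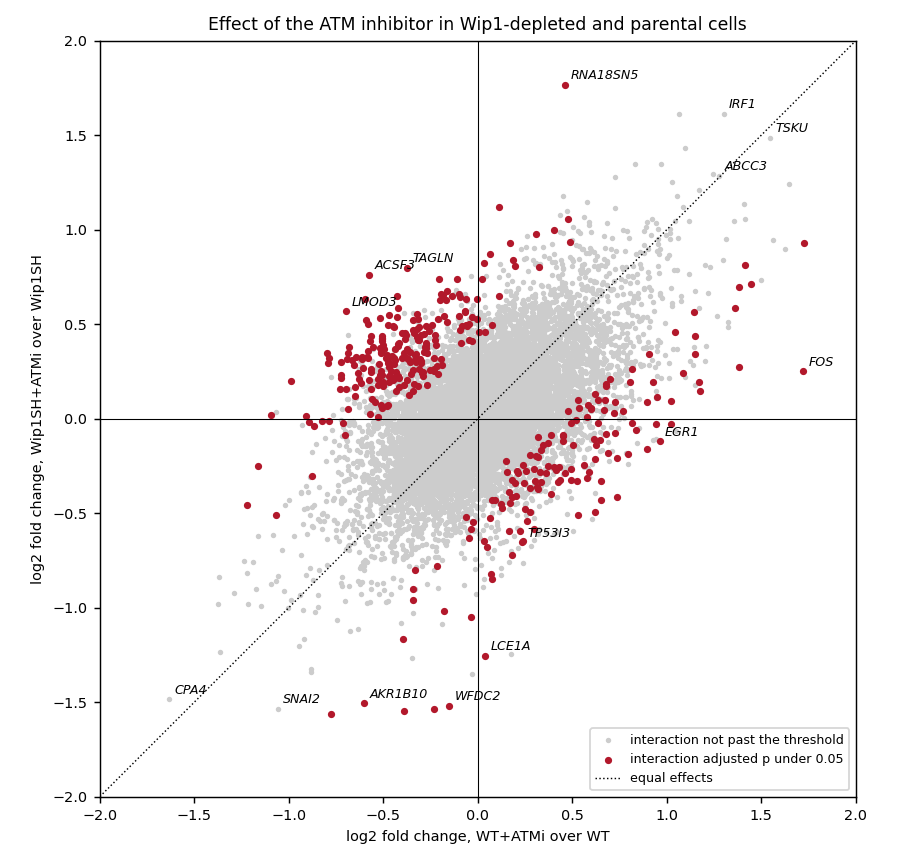
Log2 fold change by the inhibitor in Wip1-depleted cells (vertical axis) against that in parental cells (horizontal axis) for 11785 genes; red points are the 367 whose interaction passed. TSKU, ABCC3 and CPA4 lie near the line of equal effects, while FOS, EGR1 and LMOD3 lie far from it.

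Several of the largest changes were shared. The log2 fold change of TSKU was 1.49 ± 0.10 in depleted and 1.55 ± 0.10 in parental cells, that of ABCC3 was 1.29 ± 0.07 and 1.28 ± 0.07, that of HMOX1 0.95 ± 0.07 and 1.06 ± 0.07, and that of CPA4 -1.49 ± 0.10 and -1.64 ± 0.10. Their interactions were -0.06 ± 0.15, 0.01 ± 0.10, -0.10 ± 0.10 and 0.15 ± 0.14 (adjusted p = 0.866, 0.978, 0.625 and 0.598). SNAI2 fell in both, with an interaction of -0.47 ± 0.16 (adjusted p = 0.142). For FGFR3 the mean levels were 11.51 ± 0.01 in Wip1SH+ATMi, 10.17 ± 0.10 in Wip1SH, 9.12 ± 0.05 in WT+ATMi and 8.29 ± 0.16 in WT (SD, n = 3), so that each treated group stood above its untreated one by different amounts, with an interaction of 0.52 ± 0.13 (adjusted p = 0.0518). A p that misses the threshold does not show that the effects were equal.

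AKR1B10 fell further in depleted cells. Its mean levels were 8.26 ± 0.02 in Wip1SH+ATMi, 9.76 ± 0.09 in Wip1SH, 8.36 ± 0.08 in WT+ATMi and 8.96 ± 0.04 in WT (SD, n = 3), with an interaction of -0.91 ± 0.10 (adjusted p = 0.00292). The treated groups lay close together and the untreated ones apart. TP53I3 had means of 11.21 ± 0.12 in Wip1SH+ATMi, 11.87 ± 0.05 in Wip1SH, 11.91 ± 0.13 in WT+ATMi and 11.68 ± 0.06 in WT (SD, n = 3), an interaction of -0.89 ± 0.12 (adjusted p = 0.00698). It was lower with the inhibitor in depleted cells, and in parental cells its fold change of 0.23 ± 0.09 did not pass. GADD45A fell by 0.37 ± 0.08 in depleted cells and rose by 0.28 ± 0.08 in parental cells, with an interaction of -0.64 ± 0.11 (adjusted p = 0.0114). Of 35 p53 targets 6 had an interaction past the test, against 3.11% of all genes. ZMAT3 was among the 6, and its other probes had the opposite sign in depleted cells. In parental cells 7 rose and 7 fell, against 2 and 12 in depleted cells. These counts are not a test of a difference. With medians over all probes equal, 2 were higher and 3 lower in depleted cells.

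FOS and EGR1, the immediate-early factors, had log2 fold changes of 1.72 ± 0.19 and 0.96 ± 0.08 in parental cells, both past the test, and of 0.25 ± 0.19 and -0.12 ± 0.08 in depleted cells. EGR1 had mean levels of 11.10 ± 0.07 in Wip1SH+ATMi, 11.22 ± 0.06 in Wip1SH, 10.60 ± 0.13 in WT+ATMi and 9.64 ± 0.05 in WT (SD, n = 3), with an interaction of -1.08 ± 0.12 (adjusted p = 0.00232). The untreated WT group was the lowest of the 4. FOS had means of 7.07 ± 0.08 in Wip1SH+ATMi, 6.82 ± 0.11 in Wip1SH, 7.52 ± 0.16 in WT+ATMi and 5.80 ± 0.51 in WT (SD, n = 3), with an interaction of -1.47 ± 0.28 (adjusted p = 0.0176, and 0.0512 without WT+ATMi replicate 3). Its WT mean was near the lowest detected signals of those arrays (5.64 to 5.67), so the sizes of its parental change and interaction are uncertain. NQO1 rose in both but less in depleted cells, by 0.57 ± 0.07 and 1.14 ± 0.07, with an interaction of -0.58 ± 0.10 (adjusted p = 0.0128). DUSP5 fell by 0.46 ± 0.09 in depleted and by 1.22 ± 0.09 in parental cells, an interaction of 0.77 ± 0.12 (adjusted p = 0.0092). LMOD3, a leiomodin, and TAGLN took opposite signs in the 2 lines, at 0.57 ± 0.08 and 0.80 ± 0.13 in depleted and -0.70 ± 0.08 and -0.37 ± 0.13 in parental cells. Their interactions were 1.27 ± 0.11 and 1.17 ± 0.19 (adjusted p = 0.00115 and 0.00936).

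For DNA replication genes the counts stood at 18 higher and 1 lower in depleted cells and 2 higher and 0 lower in parental cells. Against 3.11% of all genes, 3 of the 46 had an interaction past the test. These were MCM7, MCM5 and RFC5, with interactions of 0.42 ± 0.09, 0.64 ± 0.13 and 0.46 ± 0.10 (adjusted p = 0.0301, 0.0224 and 0.0318). The MCM7 call was lost without any 1 array except Wip1SH+ATMi replicate 1. MCM7 had mean levels of 11.70 ± 0.04 in Wip1SH+ATMi, 11.21 ± 0.03 in Wip1SH, 11.70 ± 0.05 in WT+ATMi and 11.63 ± 0.01 in WT (SD, n = 3). Wip1SH was the lowest of the 4 groups and Wip1SH+ATMi lay above it. Thus 43 of the 46 replication genes did not pass the test of a difference between the lines. Among proteasome subunits 13 fell in depleted and 14 in parental cells, and 0 of 29 had an interaction past the test (2 at an unadjusted p under 0.05).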

How the data were processed

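Expression was measured on Illumina HumanHT-12 v4 bead arrays. The deposited table holds 1 log2 value per probe and array. The authors' non-normalized table holds probe intensities and detection p-values, per the file headers. Running neqc of limma (normexp background correction, quantile normalization, offset 16) on the deposited intensities gave the deposited log2 values within 5e-06, which were used. Of 47323 probes, 21202 had a detection p under 0.05 on at least 3 of 12 arrays. Gene names came from the platform annotation, updated through RefSeq: 30113 probes had 1 symbol, 8 had several and 17202 had none. The brightest kept probe stood for a gene, giving 11785 genes, of which 3150 had several kept probes.

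Groups were fitted with 1 mean each over 12 arrays (limma 3.58.1 in R 4.3.3, lmFit and eBayes, 8 residual degrees of freedom, 2-sided). The p-values were adjusted by Benjamini and Hochberg's method across the 11785 genes, with a threshold of 0.05. Log2 fold changes had a median standard error of 0.11, and the number of arrays limits the precision. The contrasts were Wip1SH+ATMi minus Wip1SH, WT+ATMi minus WT, and their difference. Arrays with the same replicate number did not deviate together (r of -0.022 to 0.036 for the depleted groups), and the main fit did not pair them. The labels used here do not say whether such samples were handled together, and these correlations cannot settle it. The script was tested on simulated data.

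Named genes were the 15 largest rises and falls, up to 4 per list and direction with the smallest adjusted p, the 5 largest interactions of each sign, and a short fixed set. Other list members are given by value only. Named list genes whose call was lost on leaving out 1 array are mostly left to the counts. The lists and members were chosen with earlier results of these data known. Alternatives covered background correction, normalization, detection filter, probe choice, array weights, a detected-probe covariate, a replicate block, the 6 arrays alone and each array left out. "At least" folds set a group detected on no array at the lowest detected signal.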

Additional observations from a re-analysis of the deposited data

Results flagged for a closer look

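The effect of the inhibitor differed between depleted and parental cells in 32 of the 231 named genes. The test was that of the difference itself (limma interaction, Benjamini-Hochberg adjusted). Over all 11785 genes tested, 367 passed it (3.11%). Some of the 32 were named because they had the largest interactions of each sign past the threshold, so their passing was fixed by that choice. The count of 32 is therefore no measure of how often the effect differed. The values are log2 effects in Wip1SH minus those in WT, and n = 3 arrays in each of the 4 groups. The effect was more negative in depleted cells for FOS (-1.47), WFDC2 (-1.37), MYH16 (-1.31), LCE1A (-1.29), AKR1B15 (-1.16), AKR1B10 (-0.91), TP53I3 (-0.89), FCGBP (-0.80), MTF1 (-0.78), CEACAM1 (-0.77), CDK6 (-0.73), RELB (-0.65), GADD45A (-0.64), SOX9 (-0.61), NQO1 (-0.58), CREB3L2 (-0.55) and IARS1 (-0.52). It was more positive for ACSF3 (1.34), RNA18SN5 (1.30), LMOD3 (1.27), SNORA57 (1.23), TXNDC2 (1.19), TAGLN (1.17), MBD4 (0.86), DUSP5 (0.77), ZMAT3 (0.76), COL1A1 (0.64), E2F2 (0.61), HSD17B7 (0.61), DNMT3B (0.54), UHRF1 (0.54) and MCM7 (0.42). LCE1A was detected on all 3 Wip1SH arrays and on 0 arrays of the other groups, so that it passed the detection filter only through the Wip1SH arrays, its value rests on signals not above background, and its test is no support for a difference. The values of WFDC2, TXNDC2 and ACSF3 also rest in part on arrays where the gene was not detected, which for TXNDC2 are all 3 WT+ATMi arrays. That of FOS rests on a WT mean near the lowest detected signals. The ZMAT3 value is that of its brightest probe. Its other probes took the opposite sign in depleted cells, at -0.16 and -0.76, and so did a second UHRF1 probe.

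With each array left out in turn, the difference stayed past the threshold for 18 of 33 genes, these 32 and EGR1. It was lost without at least 1 array for FOS, FCGBP, MTF1, CEACAM1, SOX9, IARS1, MCM7, UHRF1, DNMT3B, HSD17B7, E2F2, COL1A1, TXNDC2, RNA18SN5 and ACSF3. For IARS1 it was lost without any 1 of the 12 arrays, with an adjusted p of up to 0.105, and for ACSF3 it reached 0.112.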

How the results depend on the processing

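For Wip1SH+ATMi against Wip1SH, 159 genes passed with each array's detected-probe count as a covariate and 66 with a change of at least 2-fold, against 2750 in the main setting. For WT+ATMi against WT, against 3002 genes, the counts were 7206 with array medians equal over all probes (7041 higher and 165 lower), 33 with the covariate and 97 at 2-fold. With the medians taken over detected probes, 1766 were higher and 1659 lower. For the interaction, against 367 genes, they were 574 with no background correction, 231 with the covariate, 36 at 2-fold, and 161 to 319 with 1 array left out. The other alternatives left each of the 3 counts within 1.5 times. The main fit did not pair samples by replicate number, and a replicate block gave 2615, 2910 and 295 genes. By the mean of their probes ZMAT3 was at -0.22 and PRKDC at -0.008, and with the covariate FOSB was at -0.03, each against a positive main value. Among 220 named genes that passed, 186 lost the call with the covariate, 67 with array medians over all probes, 30 with the 6 arrays alone and 38 to 47 without 1 depleted array. For 113 genes no alternative but the covariate ended the call. The number of detected probes moved with the inhibitor in both lines, so the covariate also takes up its effect, and the cause of the lost calls was not tested. The slide as a block was not run, since the files used here give no array positions. Low signal limits genes detected on 0 arrays of a group to bounds.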

Other observations

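Of the 21202 kept probes, 5430 carried no gene name in the annotation used. In Wip1SH+ATMi against Wip1SH, with adjustment over all kept probes, 274 of them were higher and 274 lower.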
